A study of Saccharomyces cerevisiae with 6 samples.

Results

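RNA polymerase III (Pol III) of the budding yeast Saccharomyces cerevisiae contains 10 subunits that neither of the other nuclear RNA polymerases has. Their mRNAs were followed in the actin mutant R256C, where a cysteine takes the place of an arginine of actin, and in wild type (WT). The genes are RPO31, RET1, RPC82, RPC53, RPC37, RPC34, RPC31, RPC25, RPC17 and RPC11. All 10 were found by their systematic names among the 7126 gene rows of the count table, and all 10 passed the filter on low counts. The series places this arginine of actin in the setting of transcription, and the comparison of R256C with WT asks which mRNAs differ between the strains. Each strain gave 3 libraries, labelled as biological replicates, so p-values measure the spread between these cultures. Both strains are labelled S288C, and both grew untreated in the rich medium YPD at 30 °C until early exponential phase (optical density 0.9). For the promoter behind the altered actin, other alleles of the strains and the number of independent isolates, the labels give nothing. Differences between the strains other than the substitution cannot be told apart from it.

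Pol III makes the transfer RNAs, the 5S ribosomal RNA and a few other short untranslated RNAs. RPO31 and RET1, its largest subunits, form the active centre and have relatives in Pol I and Pol II. RPC82, RPC34 and RPC31 form a trimer that takes part in opening the promoter, and RPC34 contacts the initiation factor TFIIIB. RPC53 and RPC37 form a dimer that acts in termination and reinitiation together with RPC11, which also cleaves stalled RNA. RPC25 and RPC17 form the stalk. In growing yeast the enzyme supplies the RNAs on which protein synthesis rests, and the repressor MAF1 shuts it down in stress or when nutrients run out. The mRNAs of its subunits are themselves made by Pol II.

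The promoters of these genes were searched for known sequence elements. PAC is a promoter element named after polymerases A and C, the older names of Pol I and Pol III. Matches in genes of these enzymes are therefore a description and no independent finding. RRPE is an element often found close to PAC in genes of ribosome synthesis. The core of PAC was searched as GATGAG and that of RRPE as AAATTTT, both on either strand, from 250 bases before to 50 bases after the first base of the start codon (RefSeq genome, build R64). The core of PAC was present in 8 of the 10 windows, all except those of RPC17 and RPC11, against 20.3% of the 6020 windows of protein-coding genes that could be read. The core of RRPE was present in 8 of the 10, all except RPC31 and RPC17, against 23.1% of the 6020. The 40 bases around the PAC core are shown to compare its surroundings and orientation, each 5′ to 3′ toward the start codon with GATGAG or its reverse complement in capitals.
RPO31, chrXV:544221-544260, minus strand: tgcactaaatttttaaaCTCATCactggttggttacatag
RET1, chrXV:733564-733603, minus strand: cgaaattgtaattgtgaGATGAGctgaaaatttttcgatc
RPC82, chrXVI:919141-919180, minus strand: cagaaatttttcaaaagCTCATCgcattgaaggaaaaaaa
RPC53, chrIV:183081-183120, plus strand: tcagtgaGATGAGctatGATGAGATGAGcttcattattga
RPC37, chrXI:487690-487729, plus strand: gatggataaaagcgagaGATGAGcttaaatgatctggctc
RPC34, chrXIV:635336-635375, minus strand: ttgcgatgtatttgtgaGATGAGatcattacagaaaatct
RPC31, chrXIV:348582-348621, minus strand: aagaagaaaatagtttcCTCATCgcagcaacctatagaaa
RPC25, chrXI:176653-176692, minus strand: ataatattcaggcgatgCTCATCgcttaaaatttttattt

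The end of the match nearest the gene lay 56 bases before the start codon in RPC34, 58 in RPC37, 78 in RPC31 and 93 in RPO31. It lay 117 bases before it in RPC82, 124 in RET1 and 189 in RPC25. RPC53 carried a pair of overlapping copies, 235 and 240 bases before the start codon, and another just outside the window. With the longer core CGATGAG, the windows of RPC82, RPC31 and RPC25 had a match (3 of 10), against 6.99% of all windows. In RPC37 further matches lay across the start codon and inside the coding part. No match of the PAC core overlapped one of the RRPE core in the 10 windows, while RRPE matches on opposite strands often overlapped each other by all but 1 base. The longer core contains the shorter one.

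The 3 subunit genes whose mRNA differed between the strains by the test described further on had the following windows of 300 bases. They are printed because the elements lie at different distances from the start codon and because the genes moved in different directions. Capitals mark the cores of PAC and RRPE.
RPO31, chrXV:544096-544395, minus strand: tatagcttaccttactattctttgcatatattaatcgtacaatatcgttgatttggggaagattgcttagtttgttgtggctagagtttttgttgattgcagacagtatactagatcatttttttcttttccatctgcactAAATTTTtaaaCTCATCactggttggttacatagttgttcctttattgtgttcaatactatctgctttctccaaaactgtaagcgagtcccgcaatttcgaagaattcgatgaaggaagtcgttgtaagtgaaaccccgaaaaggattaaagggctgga
RPC25, chrXI:176432-176731, minus strand: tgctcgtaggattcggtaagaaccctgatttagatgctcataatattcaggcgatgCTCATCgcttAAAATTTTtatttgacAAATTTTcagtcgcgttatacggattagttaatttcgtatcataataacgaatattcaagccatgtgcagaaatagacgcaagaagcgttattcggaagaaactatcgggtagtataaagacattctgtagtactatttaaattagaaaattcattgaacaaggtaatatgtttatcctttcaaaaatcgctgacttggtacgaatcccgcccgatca
RPC53, chrIV:183093-183392, plus strand: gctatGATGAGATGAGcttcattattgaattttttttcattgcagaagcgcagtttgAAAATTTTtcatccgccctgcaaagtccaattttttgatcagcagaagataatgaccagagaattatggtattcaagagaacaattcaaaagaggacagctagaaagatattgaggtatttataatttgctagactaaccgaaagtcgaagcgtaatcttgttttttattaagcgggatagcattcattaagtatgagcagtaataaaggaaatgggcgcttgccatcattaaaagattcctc

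The same search in the other polymerases gave a PAC core in 6 of 7 genes for Pol I specific subunits and in 1 of 7 for Pol II specific subunits. It was present in both subunit genes that only Pol I and Pol III share, RPC40 and RPC19, and in 0 of 5 genes for subunits shared by all 3 enzymes. Among the factors that bring Pol III to its genes, 1 of 3 TFIIIB genes, 1 of 6 TFIIIC genes and 0 of 1 TFIIIA genes had it. The match of the Pol II list (RPB2) and that of the TFIIIB list (SPT15) lay inside the coding part, not before the start codon. Across all tested genes with a window, 25.3% of the 1148 with a PAC core fell in R256C and 20.6% rose. Of the 4651 without it, 22.2% fell and 20.4% rose. For the longer core CGATGAG, 29.2% of the 415 genes with it fell and 16.1% rose, against 22.3% and 20.8% of the 5384 without it.

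**Figure D1:**
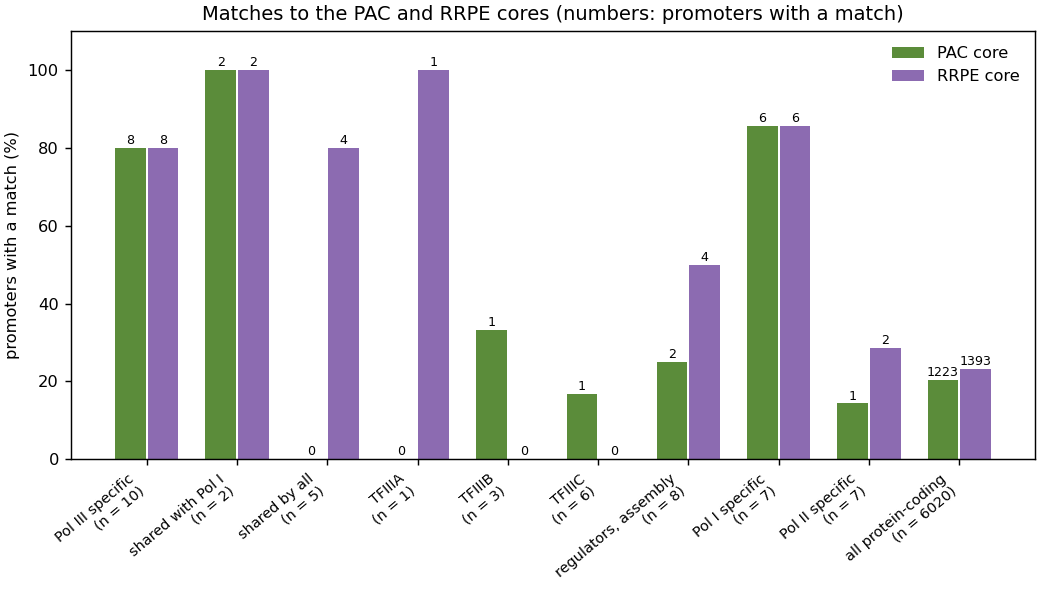
Share of promoter windows (percent, vertical axis) with a match to the PAC core (green) or the RRPE core (purple) in each gene list, with the number of promoters in brackets and the number with a match above each bar. The PAC core was found in 8 of 10 Pol III specific and 6 of 7 Pol I specific windows, against 1 of 7 Pol II specific windows and 20.3% of all protein-coding windows.

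Total counts in genes ranged from 8967232 to 11935735 in the R256C libraries and from 10750023 to 16905818 in the WT libraries. Of 6337 genes tested with edgeR's quasi-likelihood test, 1345 rose and 1358 fell at an adjusted p under 0.05, which is 42.7% of them (21.2% higher, 21.4% lower). The libraries of the strains did not overlap in 54.9% of these genes (27.7% higher, 27.3% lower in R256C). Levels are given as CPM, the reads of a gene scaled to a common library size with TMM factors. WT replicate 2 stood apart from the other WT libraries. Pairs of R256C libraries had correlations of 0.992 to 0.994 across genes (log2 CPM), and pairs of WT libraries 0.976 to 0.993. ACT1, which carries the substitution, was at 1354 to 1404 CPM in R256C and 1512 to 2094 CPM in WT, and its log2 fold change of -0.34 (SE 0.16) did not pass (edgeR adjusted p = 0.124). In such bulk cultures, fewer cells in a state and less RNA per cell cannot be told apart.

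The Pol III specific subunits did not move together in R256C. RPO31 and RPC25 fell, RPC53 rose, and 7 did not pass (3 of 10 called, 30%, against 42.7% of all genes). The median log2 fold change of the 10 was -0.02, and that of all genes tested was -0.01. In 4 of the 10 the libraries of the strains did not overlap, namely RPO31, RPC25 and RET1, which were lower, and RPC53, which was higher in R256C. The shares among all genes were 54.9% in either direction, 27.3% lower and 27.7% higher. Summed over the 10 genes, the level was 948, 879 and 987 CPM in R256C replicates 1, 2 and 3, against 1029.5, 1085 and 1035 CPM in WT replicates 1, 2 and 3. With TMM scaling, every R256C library was below every WT library in this sum. The mean was 938 ± 54.7 CPM in R256C and 1049.7 ± 30.7 CPM in WT (SD, n = 3 each), a ratio of 0.894. This ratio became 0.956 when libraries were scaled by their totals alone, and the libraries of the strains then overlapped. Without RPO31 and RPC25, the sum of the other 8 was 753, 702 and 785 CPM in R256C, against 688, 811 and 715 CPM in WT (ratio 1.01), and these libraries overlapped. RPO31 and RPC25 were left out because they fell, and RPC53, which rose, was kept, so a higher ratio follows from this choice. Per kb of coding length the sums overlapped, at 779 to 885 in R256C and 819 to 975 in WT.

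**Figure D2:**
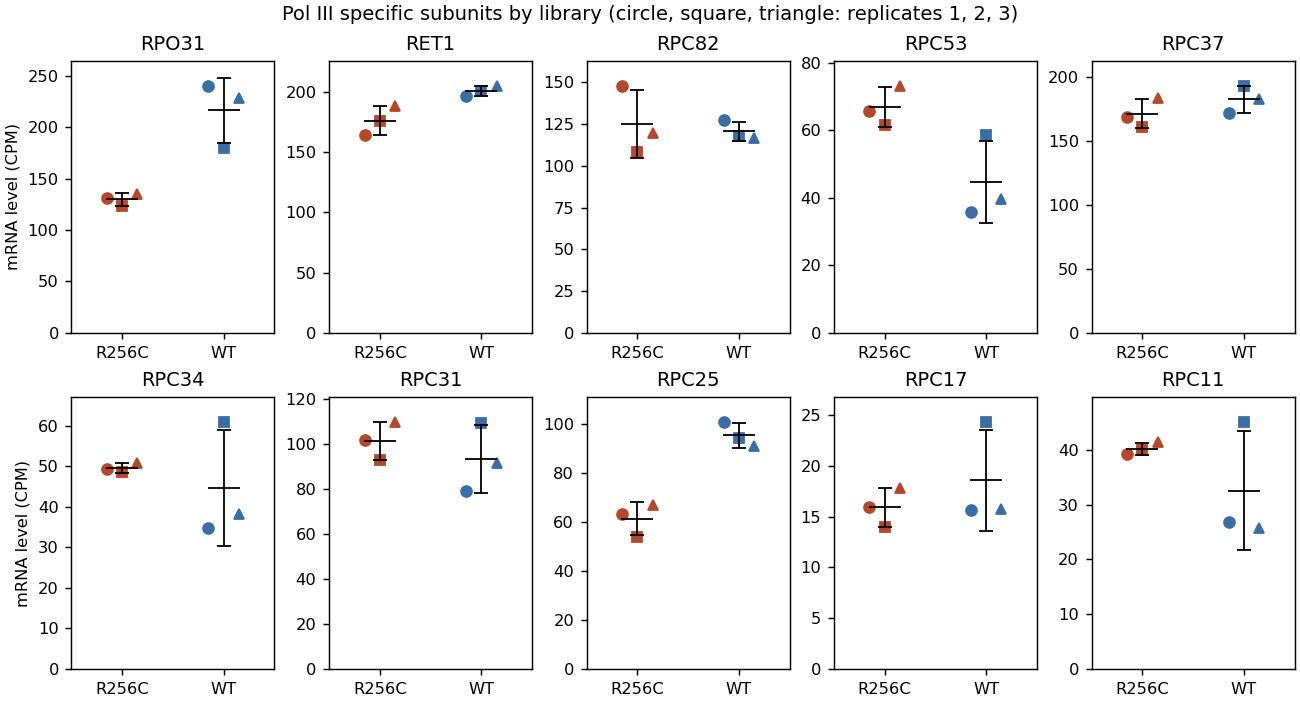
mRNA level of each Pol III specific subunit (CPM, vertical axis from 0) in R256C (red) and WT (blue); symbols are libraries, black bars the mean and SD of 3. RPO31, RPC25 and RET1 were lower in every R256C library than in any WT library, and RPC53 was higher. In RPC53, RPC37, RPC34, RPC31, RPC17 and RPC11 WT replicate 2 (square) was the highest WT library.

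The active centre was represented by RPO31 (YOR116C, chrXV:539763-544145, minus strand), the largest subunit, and RET1 (YOR207C, chrXV:730008-733457, minus strand), which pairs with it. RPO31 was at 132, 123 and 135 CPM in R256C replicates 1, 2 and 3, against 240.2, 180.2 and 228 CPM in WT replicates 1, 2 and 3. All R256C libraries lay below all WT libraries, and WT replicate 2 was the lowest of WT. RPO31 fell 1.66-fold (log2 fold change -0.73 ± 0.12 SE, adjusted p = 0.00177 in edgeR). It passed in all 16 alternative analyses, with log2 fold changes from -0.85 without WT replicate 2 to -0.37 after an offset for gene length. RET1 was at 164, 176 and 189 CPM in R256C, against 197, 201 and 205 CPM in WT. These libraries did not overlap, yet RET1 did not pass (-0.19, SE 0.088, edgeR adjusted p = 0.112), and with the length offset its value was 0.05. Long genes were lower in R256C in general: of the 581 tested genes with a coding length of 2835 to 14733 bases, which include RPO31 (4383 bases) and RET1 (3450 bases), 45.4% fell, and their median log2 fold change was -0.26. Within each library, the RPO31 level per kb was 0.630, 0.551 and 0.565 times that of RET1 in R256C, against 0.959, 0.706 and 0.875 times in WT. The ratio was lower in every R256C library than in any WT library. RPT5, a proteasome gene whose start lies 883 bases from that of RPO31 on the other strand, also fell (-0.48, SE 0.095, edgeR adjusted p = 0.00463). It was picked out with its values in view.

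The trimer RPC82, RPC34 and RPC31 did not pass in any of its members. RPC82 (YPR190C, chrXVI:917077-919041, minus strand) was at 148, 108 and 119 CPM in R256C, against 127, 118 and 117 CPM in WT, and R256C replicate 1 was the highest library. Its log2 fold change was 0.05 (SE 0.12, edgeR adjusted p = 0.741), and it was -0.08 without R256C replicate 1. RPC34 (YNR003C, chrXIV:634344-635297, minus strand), the subunit that contacts TFIIIB, was at 49.3, 48.5 and 50.9 CPM in R256C, against 34.6, 60.9 and 38.1 CPM in WT. The R256C libraries were close to each other and lay between WT replicate 2 and the other WT libraries. The log2 fold change of 0.15 (SE 0.20) did not pass (edgeR adjusted p = 0.570). Without WT replicate 2 it was 0.45 and passed (adjusted p = 0.0013). RPC31 (YNL151C, chrXIV:347766-348521, minus strand), an acidic subunit, was at 102, 92.8 and 109.9 CPM in R256C, against 79.3, 109.6 and 91.4 CPM in WT. The ranges overlapped (0.12, SE 0.13, edgeR adjusted p = 0.495), and without WT replicate 2 the value was 0.25 (adjusted p = 0.0391).

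In the dimer, RPC53 passed and RPC37 did not, and the difference between them was not tested. RPC53 (YDL150W, chrIV:183343-184611, plus strand) was at 65.7, 61.5 and 73.2 CPM in R256C, against 35.9, 58.7 and 39.6 CPM in WT. The lowest R256C library was just above WT replicate 2, the highest of WT. RPC53 rose 1.49-fold (log2 fold change 0.57 ± 0.18 SE, adjusted p = 0.0313 in edgeR). The call was lost on leaving out WT replicate 1 (0.43, adjusted p = 0.0587), WT replicate 3 (0.49, 0.114) or R256C replicate 1 (0.59, 0.0811), 2 (0.63, 0.0697) or 3 (0.51, 0.112). Without WT replicate 2 the value was 0.82 (adjusted p = 1.07e-05). The table also has a row for YDL151C, a dubious reading frame known to overlap RPC53, with 1 to 11 reads per library. If strand was not used in counting, reads in the stretch they share were left out of both, so the level of RPC53 may be too low in both strains. RPC37 (YKR025W, chrXI:487770-488618, plus strand), its partner, was at 169, 161 and 184 CPM in R256C, against 172, 193 and 183 CPM in WT. The libraries were interleaved, and RPC37 did not pass (-0.09, SE 0.092, edgeR adjusted p = 0.447).

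RPC11 (YDR045C, chrIV:547978-548310, minus strand), the subunit for RNA cleavage and reinitiation, was at 39.2, 39.97 and 41.4 CPM in R256C, against 26.8, 45.1 and 25.7 CPM in WT. The R256C libraries again lay between WT replicate 2 and the other WT libraries. The log2 fold change was 0.30 (SE 0.20, edgeR adjusted p = 0.269), and without WT replicate 2 it was 0.61 and passed (adjusted p = 0.000155). HEM13, a heme synthesis gene that ends 349 bases from the end of RPC11 on the other strand, was at 681, 697 and 719 CPM in R256C, against 69.9, 114 and 70.4 CPM in WT (log2 fold change 3.04 ± 0.20 SE, adjusted p = 3.1e-05 in edgeR). Among the WT libraries both genes were highest in replicate 2. The part of HEM13 reads in the count of RPC11 was not tested. HEM13 was picked out with its values in view.

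In the stalk, RPC25 fell and RPC17 did not pass, and the difference between them was not tested. RPC25 (YKL144C, chrXI:175843-176481, minus strand) was at 63.1, 53.9 and 67.0 CPM in R256C, against 101, 94.3 and 90.9 CPM in WT. All R256C libraries lay below all WT libraries, with a gap larger than the spread within either strain. RPC25 fell 1.56-fold (log2 fold change -0.64 ± 0.10 SE, adjusted p = 0.00185 in edgeR) and passed in all 16 alternative analyses, from -0.54 to -0.70. LTV1, a gene for export of the small ribosomal subunit, starts 299 bases from the start of RPC25 in the opposite direction, so that they share the stretch with the PAC core. LTV1 was at 254, 195 and 237 CPM in R256C, against 424, 285 and 360.0 CPM in WT, and fell as well (-0.64, SE 0.16, edgeR adjusted p = 0.0134). The proteasome gene RPT1, which ends 226 bases from the end of RPC25, fell too (-0.80, SE 0.097, adjusted p = 0.000432). Both neighbours were picked out with their values in view. RPC17 (YJL011C, chrX:414285-414770, minus strand), the partner of RPC25 in the stalk, was the lowest of the 10 in CPM, at 15.9, 14.0 and 17.8 CPM in R256C, against 15.6, 24.3 and 15.7 CPM in WT. WT replicate 2 stood above all other libraries, and RPC17 did not pass (-0.23, SE 0.20, edgeR adjusted p = 0.379). Its value was 0.01 without WT replicate 2 and -0.35 without WT replicate 1.

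**Figure D3:**
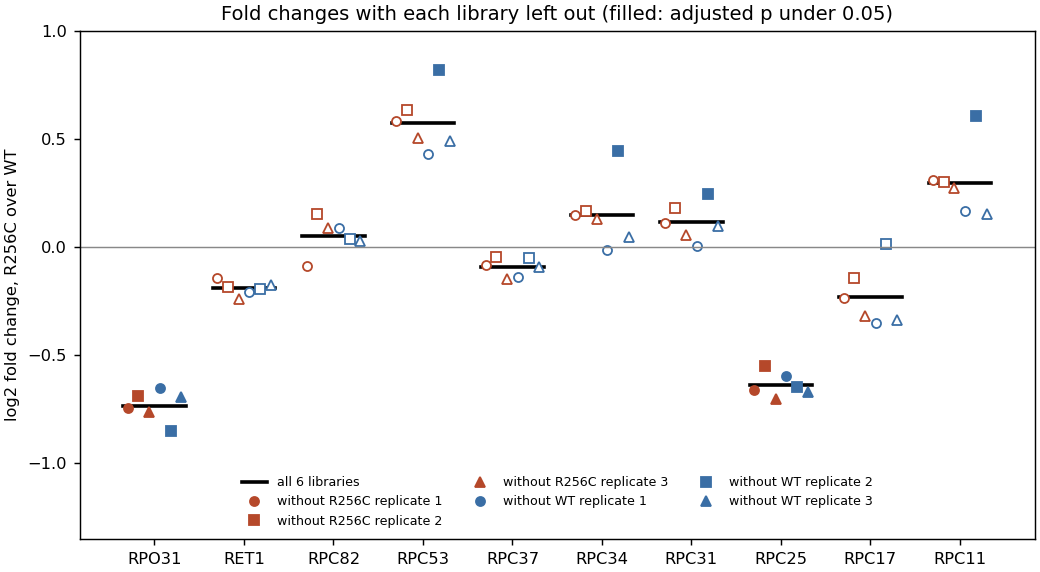
Log2 fold change of each Pol III specific subunit (R256C over WT, vertical axis) with all 6 libraries (black line) and with each library left out (R256C replicates in red, WT replicates in blue); filled symbols had an adjusted p under 0.05. RPO31 and RPC25 stayed below 0 and filled throughout, whereas RPC53, RPC34, RPC31 and RPC11 were filled only without WT replicate 2. Among the latter, only RPC53 passed with all 6 libraries.

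WT replicate 2 differed from the other WT libraries in several subunits, mostly in the same direction. On the log2 scale it stood above the mean of the other WT libraries by 0.78 in RPC11, 0.74 in RPC34, 0.64 in RPC53, 0.63 in RPC17 and 0.36 in RPC31. It stood below them by a difference of -0.38 in RPO31, and RET1, RPC82, RPC37 and RPC25 differed by -0.05 to 0.12. The coefficient of variation was 2.71% for RPC11 and 2.42% for RPC34 among R256C libraries, against 33.5% for RPC11 and 32.01% for RPC34 among WT libraries. With all 6 libraries 1 subunit rose, and without WT replicate 2 there were 4, RPC53, RPC34, RPC31 and RPC11. The share of all genes that rose also went up, to 29.4% of 6385 without this library, against 21.2% with it. RPO31 and RPC25 fell in both cases (29.5% of all genes fell without this library). The other genes with a mean of at least 10 CPM (5447, those of the lists left out) were ranked by the root mean square difference between their profile and the mean profile of the 10 subunits over the 6 libraries. Among the closest were PRY2, which encodes a secreted lipid-binding protein (0.023 on the log2 scale), MRPL35 of the mitochondrial ribosome (0.025), YDR034C-A (0.030) and the exosome gene RRP40 (0.033). In each of these, as in the mean of the subunits, WT replicate 2 was the highest library, and none was called between the strains. The ranking used the same 6 libraries, so this likeness follows from the choice of these genes. Single subunits lay further from their mean profile, from 0.062 for RPC37 to 0.40 for RPO31.

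Per kb of coding length, the subunit mRNAs spanned a 6.80-fold range in R256C and a 6.10-fold range in WT, although the enzyme holds each subunit once. RPC37 was highest in both strains, at 202 ± 13.6 CPM per kb in R256C and 215 ± 12.6 CPM per kb in WT (SD, n = 3 each), and its libraries lay above those of the next gene. In R256C the order went on with RPC31 (134), RPC11 (121), RPC25 (96.0), RPC82 (63.7), RPC53 (52.6), RPC34 (51.9), RET1 (51.1), RPC17 (32.7) and RPO31 (29.7). Neighbours whose libraries overlapped there were RPC31 with RPC11, RPC82 with RPC53, RPC53 with RPC34, RPC34 with RET1, and RPC17 with RPO31. In WT the order was RPC37, RPC25 (149), RPC31 (124), RPC11 (97.8), RPC82 (61.4), RET1 (58.3), RPO31 (49.3), RPC34 (46.7), RPC17 (38.2) and RPC53 (35.2). Neighbours overlapped there except RPC37 with RPC25, RPC11 with RPC82, and RET1 with RPO31. RPC25 thus stood directly after RPC37 in WT and after RPC31 and RPC11 in R256C, and RPO31 was the lowest subunit in R256C alone. The place of RPC53 is uncertain for the reason given above.

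**Figure D4:**
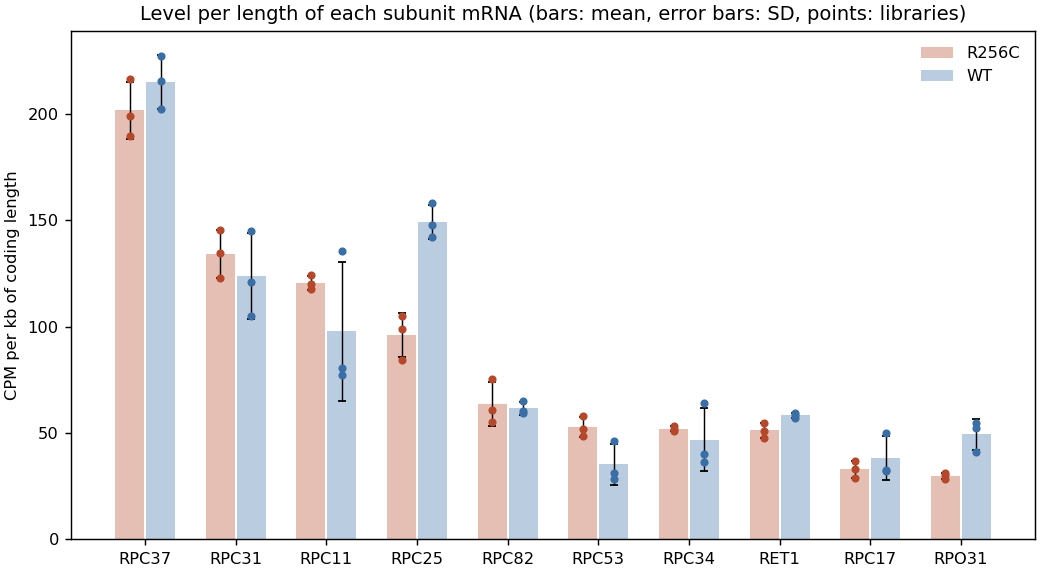
Level of each subunit mRNA per kb of coding length (CPM per kb, vertical axis from 0), ordered by the R256C mean; bars are means of 3 libraries, error bars SD, points libraries, R256C in red and WT in blue. RPC37 was highest in both strains. The libraries of the strains did not overlap in RPO31, RPC25 and RET1, lower in R256C, and in RPC53, higher in R256C.

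The remaining subunits of Pol III are shared with other polymerases. Of these 7 genes, 3 fell, none rose and 4 did not pass, with a median log2 fold change of -0.21. The share called was 42.9%, near the 42.7% of all genes, of which 21.4% fell. RPC19, shared with Pol I alone, was at 30.7, 22.1 and 27.5 CPM in R256C, against 52.6, 31.2 and 42.7 CPM in WT (-0.65, SE 0.20, edgeR adjusted p = 0.0298). This call was lost in 5 of the 16 alternatives (adjusted p up to 0.117), with library totals alone and without WT replicate 1 or 3 or R256C replicate 2 or 3. RPC40, which pairs with RPC19, did not pass (-0.21, edgeR adjusted p = 0.223). Of the subunits found in all 3 polymerases, the small zinc-binding RPC10 fell (-0.73, SE 0.13, edgeR adjusted p = 0.00263), as did RPB8 (-0.55, SE 0.11, adjusted p = 0.0051), both in all 16 alternatives. RPB5 (-0.03), RPO26 (-0.06) and RPB10 (0.13) did not pass. Without WT replicate 2, RPB10 was at 0.34 and passed (adjusted p = 0.00785).

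Among the factors that direct Pol III to its genes, BRF1 had the lowest adjusted p. Of the 10 genes for TFIIIA, TFIIIB and TFIIIC, 2 rose, 2 fell and 6 did not pass, with a median log2 fold change of -0.04. These shares are near those of all genes, of which 21.2% rose and 21.4% fell. BRF1, the subunit of TFIIIB that recruits Pol III, was at 105, 104 and 100.0 CPM in R256C, against 41.5, 57.9 and 43.3 CPM in WT. It rose 2.17-fold (1.12, SE 0.13, edgeR adjusted p = 0.000408) and passed in all 16 alternatives. The other TFIIIB genes, SPT15 for the TATA-binding protein (0.13) and BDP1 (-0.13), did not pass. In TFIIIC, which binds the promoters inside Pol III genes, TFC7 rose (0.30, SE 0.084, edgeR adjusted p = 0.0203), while TFC3 (-0.53, SE 0.17, 0.0350) and TFC4 (-0.40, SE 0.10, 0.0142) fell. The calls of TFC3, TFC4 and TFC7 were lost in 8, 5 and 3 of the 16 alternatives. Leaving out 1 library ended the call of TFC3 for each library except WT replicate 2, that of TFC4 for WT replicate 3 or R256C replicate 1, and that of TFC7 for WT replicate 3 or R256C replicate 1 or 2. With the length offset TFC3 was at -0.26 (adjusted p = 0.167) and TFC4 at -0.21 (0.0618). TFC1 (0.04), TFC6 (-0.19), TFC8 (0.19) and PZF1, the 5S gene factor TFIIIA (-0.28), did not pass. Without WT replicate 2, PZF1 (-0.38, adjusted p = 0.0112) and TFC8 (0.28, 0.0248) did.

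Regulators and assembly factors mostly did not pass: of 8 genes, 1 fell and none rose (median log2 fold change 0.03). The share called was 12.5%, against 42.7% of all genes, of which 21.4% fell. The gene that fell was BUD27, a chaperone-like factor for polymerase assembly, at 293, 212 and 240 CPM in R256C, against 531, 305 and 463 CPM in WT (-0.80, SE 0.21, edgeR adjusted p = 0.0147). WT replicate 2 was close to the highest R256C library, and the call was lost in 3 of the 16 alternatives (adjusted p up to 0.0697), without WT replicate 3 or R256C replicate 2 or 3. MAF1, the repressor of Pol III, was at 123, 119 and 113 CPM in R256C, against 100.5, 103 and 112 CPM in WT. The strains did not overlap, but MAF1 did not pass (0.17, SE 0.085, edgeR adjusted p = 0.138). RBS1, an assembly factor (0.18), and the casein kinase 2 genes CKA1 (-0.21) and CKA2 (0.28), whose product acts on the Pol III machinery, did not pass either. CKA1 passed with DESeq2 (-0.22, adjusted p = 0.0424), with the length offset (-0.25, 0.0279) and without WT replicate 2 (-0.22, 0.0285). CKA2 passed with library totals alone (0.39, adjusted p = 0.0217) and without WT replicate 2 (0.45, 0.00016).

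The subunits with relatives in the other polymerases were set beside them. Of the 7 Pol I specific subunits 5 fell, and of the 7 Pol II specific subunits 2 fell, while none rose in either list. That is 71.4% of the Pol I list and 28.6% of the Pol II list, against 21.4% of all genes. The median log2 fold changes were -0.48 for Pol I and -0.08 for Pol II. The difference between the lists was not tested. The largest subunits were lower in all 3 enzymes, at -0.73 for RPO31, -0.75 for RPA190 of Pol I (SE 0.13, edgeR adjusted p = 0.00259) and -0.65 for RPO21 of Pol II (SE 0.17, adjusted p = 0.0159). With the length offset they were -0.37 (adjusted p = 0.0131), -0.33 (0.0559) and -0.21 (0.234). The call of RPO21 was lost in 6 of the 16 alternatives, also without WT replicate 3 or any R256C replicate (adjusted p 0.0586 to 0.0692). Among the relatives of RET1, RPA135 of Pol I fell (-0.91, SE 0.11, edgeR adjusted p = 0.000512), as did RPB2 of Pol II (-0.44, SE 0.11, adjusted p = 0.0154). With the length offset the values were -0.64 (adjusted p = 0.00316) and -0.17 (0.156). The call of RPB2 was lost in 5 of the 16, also with library totals alone and without WT replicate 3 or R256C replicate 1. Among the stalk subunits RPA43, the Pol I relative of RPC25, fell (-0.86, SE 0.13, edgeR adjusted p = 0.00126). RPA14, the other stalk subunit of Pol I, fell as well (-0.48, SE 0.085, adjusted p = 0.00275). RPA12, the Pol I relative of RPC11, fell (-0.40, SE 0.12, edgeR adjusted p = 0.0241), a call lost in 4 of the 16 alternatives, with library totals alone and without WT replicate 3 or R256C replicate 1 or 2. The other 2 Pol I specific subunits and the other 5 Pol II specific subunits, both stalk subunits among the Pol II genes, did not pass.

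Rows for untranslated Pol III products other than transfer RNAs were higher in R256C, all 4 of 4, against 21.2% of all genes. SCR1, the RNA of the signal recognition particle, was at 1964, 2515 and 2830.3 CPM in R256C, against 1665, 978 and 1146 CPM in WT (0.95, SE 0.23, edgeR adjusted p = 0.0119). RPR1 of RNase P (0.80), SNR6 or U6 of the spliceosome (0.64) and SNR52 (1.16) rose as well, and the calls of SCR1, RPR1 and SNR6 were lost in 2, 3 and 3 of 13 alternatives. The calls of SCR1, RPR1 and SNR6 were lost without WT replicate 3 or R256C replicate 3, and those of RPR1 and SNR6 also without R256C replicate 2. SNR52 passed in all 13. These RNAs normally have no poly(A) tail, and the libraries were selected for such tails. The counts are therefore those that passed this selection, and the part of the selection in the difference was not tested.

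**Figure D5:**
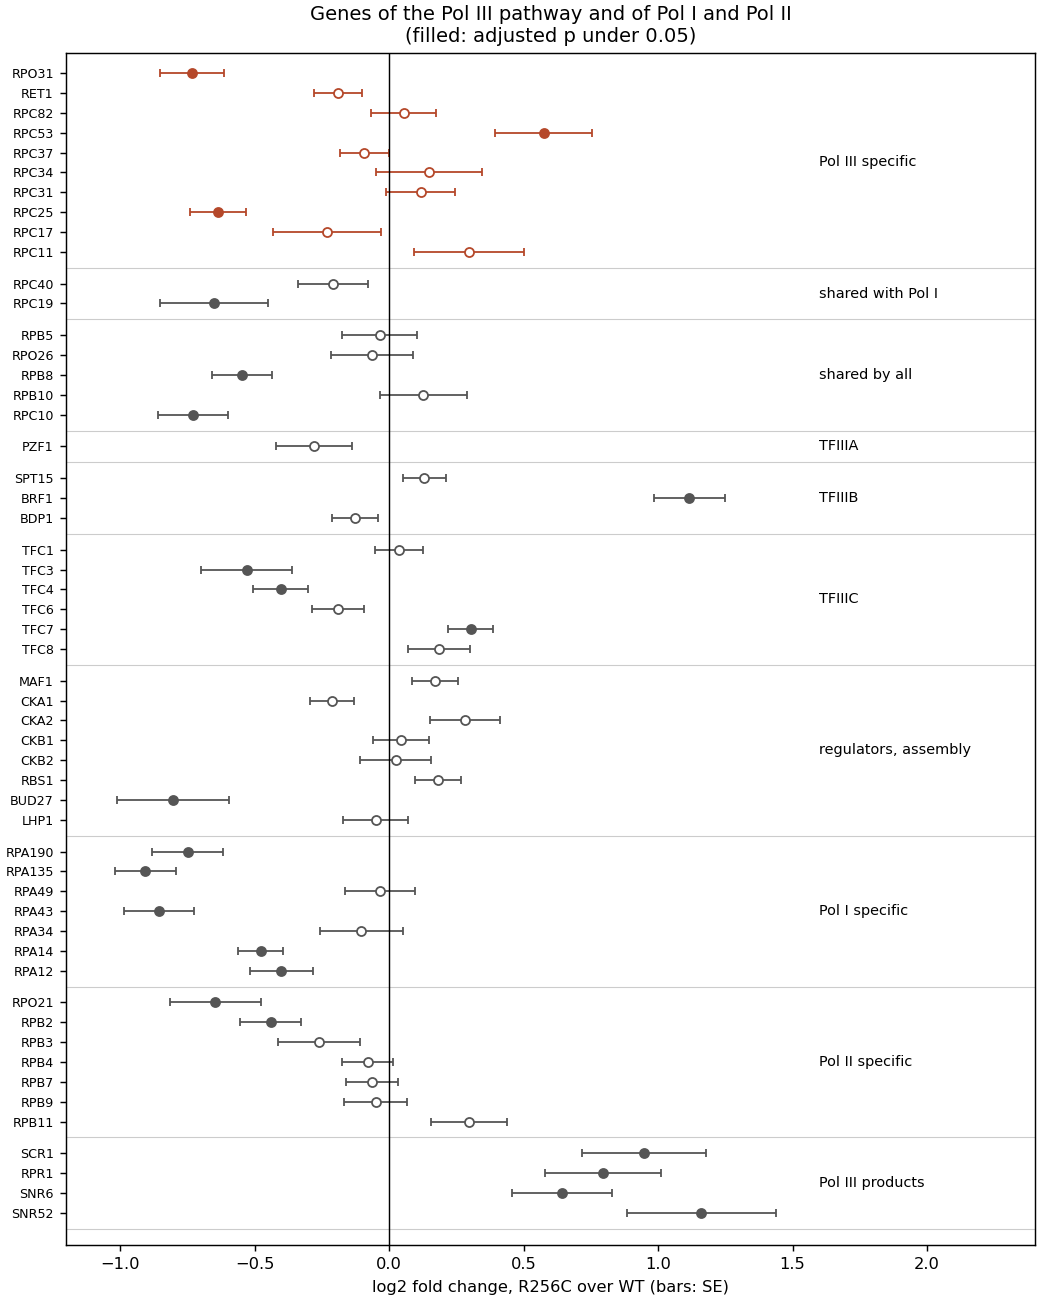
Log2 fold change (R256C over WT, horizontal axis, bars SE) of the Pol III specific subunits (red) and of the other lists (grey); filled points had an adjusted p under 0.05. RPO31 at -0.73, RPC25 at -0.64 and RPC53 at 0.57 are the filled points among the 10 Pol III specific subunits, and BRF1 at 1.12 is the highest of the transcription factor genes.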

How the data were processed

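RNA was sequenced from 3 R256C and 3 WT cultures with a stranded kit that selects poly(A) tails, per the labels' protocols. The authors deposited raw counts of reads per gene, not normalized. The submitters' processing notes name TopHat, HTSeq, DESeq and the build R64, without versions, and strand use is not given in the sources used here. Of 7131 rows, 5 summary rows were left out. They held 3.15 to 4.07% (no gene) and 7.43 to 8.13% (ambiguous) of uniquely placed reads, and 53.1 to 57.2% of the table's total (several loci). Annotation matched 6048 gene rows by locus tag, and 0 columns lacked a sample. Depth was 8967232 to 16905818 reads in genes.

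Counts were tested in R 4.3.3 with edgeR 4.0.16 (filterByExpr, TMM, glmQLFit, glmQLFTest, genotype as the only term, Benjamini-Hochberg over 6337 genes). SE was taken as the size of the log2 fold change over the square root of the F statistic. In simulated data with 6337 genes, 53.7%, 94.0% and 100.0% of genes changed 1.5-, 2- and 4-fold were recovered. The simulation gave every gene the same dispersion, changed few genes and had no library set apart like WT replicate 2. Its rates therefore need not hold for the subunits. Promoters were read from the R64 genome. Alternatives were DESeq2 1.42.0, limma-voom (limma 3.58.1), other scalings and filters, a length offset, a replicate block, protein-coding genes alone and leaving out libraries.

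The subunits and the lists were chosen with earlier results of these data known. Named were all 10 subunits, members of the lists, genes among the 5 closest profiles (1 of them is not reported here) and ACT1. Genes next to subunit genes were picked out with values in view. Protein identities between subunits were not analysed here.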

Additional observations from a re-analysis of the deposited data

How the results depend on the processing

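RPO31 and RPC25 fell at an adjusted p under 0.05 in all 16 alternatives, and 2 subunits fell in each. Of the 160 values of the 10 subunits, 146 kept direction and side of the threshold, 5 lost the call (RPC53 without each library except WT replicate 2) and 3 gained one (without WT replicate 2). Subunits called higher ranged from 0 to 4 when one library was left out. Genes called higher ranged from 876 to 1875 and genes called lower from 822 to 1884. Library totals alone gave 1639 higher and 886 lower (64.9% of calls higher instead of 49.8%), and a summed level ratio of 0.956. That ratio ranged from 0.870 to 0.922 with one library left out. The longer PAC core was in 30.0% of the windows instead of 80.0%. Coding length equals the annotated gene span in all 10 subunits, so the choice between them could not change the levels per kb.

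Log2 fold changes near 0 changed sign. This held with library totals for RPC37 (0.0067), RPB5 (0.073) and RPO26 (0.047), and with the length offset for RET1 (0.054, and 0.055 with the replicate block added). With one library left out, the values ranged from -0.35 to 0.015 for RPC17, -0.084 to 0.15 for RPC82 and -0.010 to 0.45 for RPC34. The ranges were -0.15 to 0.15 for RPB5, -0.19 to 0.15 for RPO26, -0.0094 to 0.34 for RPB10 and -0.012 to 0.096 for TFC1. The cause was not tested beyond each alternative's own construction. Of 532 values of the other named genes, 49 lost and 11 gained a call. Calls were gained by RPB10, PZF1, TFC8, CKA1, CKA2 and RPB11 without WT replicate 2, by CKA2 and RPB11 with library totals, by CKA1 with DESeq2 or the length offset, and by PZF1 with the length offset and the block.

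Same-numbered libraries did not deviate together across all genes (correlations -0.12, -0.07 and -0.06). Such correlations cannot exclude a pairing that touches some genes, and the labels state none. With the replicate as a block, 1217 genes rose and 1214 fell, and the same subunits passed: RPO31 (-0.72), RPC25 (-0.64) and RPC53 (0.60). RPC17 had the fewest reads of the subunits (162 to 370), and the SE of its log2 fold change was 0.20, like that of RPC34 and RPC11.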
